A study of Mus musculus with 9 samples.

Results

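Muscle of mice given DKK1 was compared between 1 library labelled beta-arrestin_ko and 1 library labelled Wild Type, which are 2 of the 9 RNA sequencing libraries of the series and 2 of its 7 muscle libraries. The pair was defined by its labels and by the set letter C in the names of its tables, without a rule on measured values. Earlier results of these data were known when it was chosen. Set C also holds 1 library labelled knockout PBS and the second of 2 wild type PBS libraries, which form the same contrast without DKK1 and share no library with it. Set B holds the first wild type PBS library and 1 muscle library each from tumour-bearing animals given PBS or MDC. The labels give status, treatment and tissue alone. They leave unsaid which beta-arrestin gene was deleted, in which cells, in what strain, or at what age, dose and time, and nothing in them says that libraries came from separate animals.

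DKK1 is a secreted inhibitor of Wnt signalling whose receptors are LRP5 and LRP6, co-receptors for Wnt proteins, with the Kremen proteins and CKAP4. Beta-arrestins are adaptor proteins that switch off G protein-coupled receptors and carry receptors into the cell, and the title of the series concerns the uptake of LRP6 in cancer cachexia, the wasting of muscle and fat that accompanies a tumour. Skeletal muscle holds slow fibres, which use the myosin heavy chain Myh7, and fast fibres, which use Myh2, Myh1 or Myh4, and between the fibres lie vessels, nerves, connective tissue and fat cells. In wasting muscle the ubiquitin ligases atrogin-1 (Fbxo32) and MuRF1 (Trim63) tag proteins for breakdown. RNA from whole muscle mixes all these cells, so fewer cells of a type and less RNA per cell cannot be told apart.

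The promoters of 4 genes stand for the groups with the most extreme medians in this contrast, the slow fibre genes at the top and the adipocyte genes at the bottom. Each sequence gives the 250 bases before the start of the gene, from RefSeq in build GRCm38.p6, on the strand of the gene. Capitals mark matches on either strand to the C/EBP motif TTGCNNAA, the E-box CAGCTG, the MEF2 motif or the TATA box TATAAA.
Plin1, perilipin of the fat droplet, chr7:79732777-79733026, minus strand: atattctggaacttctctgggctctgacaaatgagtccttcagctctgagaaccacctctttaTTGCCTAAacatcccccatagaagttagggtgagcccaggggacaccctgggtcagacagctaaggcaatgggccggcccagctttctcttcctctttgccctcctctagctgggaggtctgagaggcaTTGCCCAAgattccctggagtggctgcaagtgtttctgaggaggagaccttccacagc
Cfd, adipsin, chr10:79890603-79890852, plus strand: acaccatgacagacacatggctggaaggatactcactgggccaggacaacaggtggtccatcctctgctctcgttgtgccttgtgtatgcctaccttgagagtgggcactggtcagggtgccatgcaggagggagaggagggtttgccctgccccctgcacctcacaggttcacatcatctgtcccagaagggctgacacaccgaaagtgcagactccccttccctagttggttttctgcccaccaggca
Tnnt1, slow troponin T, chr7:4515976-4516225, minus strand: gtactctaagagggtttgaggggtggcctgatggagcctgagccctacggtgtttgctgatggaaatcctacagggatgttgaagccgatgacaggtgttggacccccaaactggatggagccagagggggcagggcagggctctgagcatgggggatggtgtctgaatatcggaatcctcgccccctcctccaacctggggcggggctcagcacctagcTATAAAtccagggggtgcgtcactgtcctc
Tnnc1, troponin C of slow and cardiac muscle, chr14:31208062-31208311, plus strand: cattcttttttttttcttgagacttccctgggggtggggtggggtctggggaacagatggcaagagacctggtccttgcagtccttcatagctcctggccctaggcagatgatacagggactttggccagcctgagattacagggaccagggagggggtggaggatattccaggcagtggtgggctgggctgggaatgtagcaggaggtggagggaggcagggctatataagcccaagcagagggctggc
Plin1 had the C/EBP letters at 187 and 58 bases before its start, and Tnnt1 had a TATA box at 30 bases. The C/EBP letters occurred in 2 of 14 adipocyte promoters and in 9.55% of 27025 promoters of the RefSeq table. The E-box occurred in 3 of 15 slow fibre promoters against 12.8% of all, the MEF2 motif in 2 of 15 against 3.01%, and the TATA box in 4 of 15 against 13.0%. These matches describe letters in these windows and are not binding sites.

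Total counts were 30976557 in the library labelled knockout DKK1 and 30415988 in wild type DKK1, and ranged from 21358854 to 32607835 over the 7 muscle libraries. Expression is given as CPM, reads scaled to library size after TMM normalisation, and 3 counts, the limit taken for a gene with 0, correspond to 0.0929 CPM in the first library and 0.0781 CPM in the second. Both libraries had the markers of skeletal muscle, whose 15 listed genes summed to 154000 CPM and 96700 CPM. Rn45s, the ribosomal RNA precursor, took 1.05% and 0.622% of counts, against 0.359% in knockout-labelled PBS and 8.29% in wild type PBS 2. Markers of neutrophils, kidney and pancreas reached 100 counts for none of their listed genes in either library.

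The beta-arrestin genes did not bear out the knockout labels. Arrb1, which encodes beta-arrestin-1 on chromosome 7 from 99535466, was at 28.8 CPM in knockout-labelled DKK1 and 22.5 CPM in wild type DKK1, and at 20.5 and 20.7 CPM in the PBS libraries of set C. Arrb2, which encodes beta-arrestin-2, was at 8.14 and 8.46 CPM with DKK1 and at 9.6 and 8.01 CPM with PBS. Neither gene was lower by as much as 2-fold in a library labelled knockout, and counts over a whole gene do not show whether 1 exon was lost. The libraries are therefore called knockout-labelled throughout, and every direction below rests on that label.

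A gene was called higher or lower when the CPM differed by 2-fold or more and the higher library held 100 or more counts. Of 11601 genes with that depth, 314 were higher in the knockout-labelled DKK1 library (2.71%) and 1148 were lower (9.9%), and the median log2 ratio was 0.0166. Every list count with DKK1 below is to be read against these shares, and a count near them is no result about the list. Scaling by total counts alone gave 157 higher and 1757 lower genes, so that 8.2% of calls were higher in place of 21.5%, and it moved the median of all genes to -0.257. With 1 library per side there is no replicate check, and the 2 wild type PBS libraries, which are from different sets, differed by as much at 26.2% of genes. Of the genes called, 195 of the 314 higher and 725 of the 1148 lower differed by more than that wild type pair did. Called genes were picked for a difference of 2-fold or more, which raises these numbers, so they are no support for the calls. The wild type pair was itself past the rule at 140 of the 314 and 509 of the 1148. The intervals given with ratios are exact binomial 95% intervals and cover counting error only.

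A fit over the 7 muscle libraries with edgeR's quasi-likelihood test, whose spread comes from the wild type pair, called 0 genes at an adjusted p under 0.05, with 218 at an unadjusted p under 0.05 and 0.439 as the smallest adjusted p. DESeq2 called 14 genes (0.0904%) and limma-voom 0, with 174 at an unadjusted p under 0.05. The 2 genes that DESeq2 called higher were Rpl29 (adjusted p = 2.9e-07) and Igfn1 (adjusted p = 0.00483). Among the 12 it called lower were the adipocyte genes Cfd (adjusted p = 0.00701), Cidec (0.0188), Retn, Pck1, Adipoq and Plin1, and Cyp2e1 (0.00104). Arxes2, Gdpd3 and 3 predicted genes made up the rest of the 12. The wild type pair spans sets B and C, so the spread in these tests includes any difference between sets.

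Genes of slow fibres were higher in the knockout-labelled DKK1 library for 11 of 16 measured members, with a median log2 ratio of 2.33, and none was lower. Myh7, the slow myosin heavy chain, was at 2100 CPM in knockout-labelled DKK1 and 140 CPM in wild type DKK1, and at 8.37, 138 and 2.26 CPM in knockout-labelled PBS, wild type PBS 2 and wild type PBS 1. It thus stood 15-fold higher (interval 14.6 to 15.4) in 1 library of the 7, while the tumour libraries held 33.6 and 324 CPM. The slow troponins were also highest in knockout-labelled DKK1 of the 7 libraries: Tnnt1 was at 503 against 49.9 CPM. Tnnc1 was at 300 against 32.2 CPM, and Tnni1 at 245 against 28.9 CPM. Myl3 and Myl2, light chains of slow and cardiac myosin, had log2 ratios of 2.23 and 3.03, and Atp2a2, the slow calcium pump, was at 1270 against 225 CPM. Casq2, Ankrd2, Csrp3, Pln and Fhl1 were the 5 members within 2-fold, with log2 ratios from -0.186 to 0.0951. Mhrt, a noncoding RNA that overlaps Myh7 on the opposite strand, was at 396 against 28.8 CPM, and without a stated strand setting its reads cannot be told apart from those of Myh7.

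The slow fibre difference had the opposite sign without DKK1 when wild type PBS 2 was the reference. In the PBS contrast, where 2.97% of 10641 genes were higher, 7.18% lower and 10.1% either, 15 of 16 slow fibre genes were lower in the knockout-labelled library, with a median of -1.88, and wild type PBS 2 stood above wild type PBS 1 by a median of 5.08. The summed CPM of the list was 8360 in knockout-labelled DKK1, 2550 in wild type DKK1, 1040 in knockout-labelled PBS, 3720 in wild type PBS 2 and 211 in wild type PBS 1. By this sum knockout-labelled PBS was below wild type PBS 2 but above wild type PBS 1, so the sign without DKK1 depended on the reference. With knockout-labelled PBS in place of knockout-labelled DKK1, 0 members were higher than in wild type DKK1, so the count rests on that 1 library. Sln, which encodes the calcium pump inhibitor sarcolipin, and Myh6, the cardiac alpha myosin, were also higher with DKK1. Sln was at 19.5 against 1.72 CPM with DKK1 and 2.39 against 4.49 CPM with PBS, within 2-fold. Myh6 was at 134 against 32.5 CPM and at 2.8 against 53.7 CPM, lower with PBS. The part that the share of slow fibres in each piece of muscle had in these values was not tested.

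**Figure D1:**
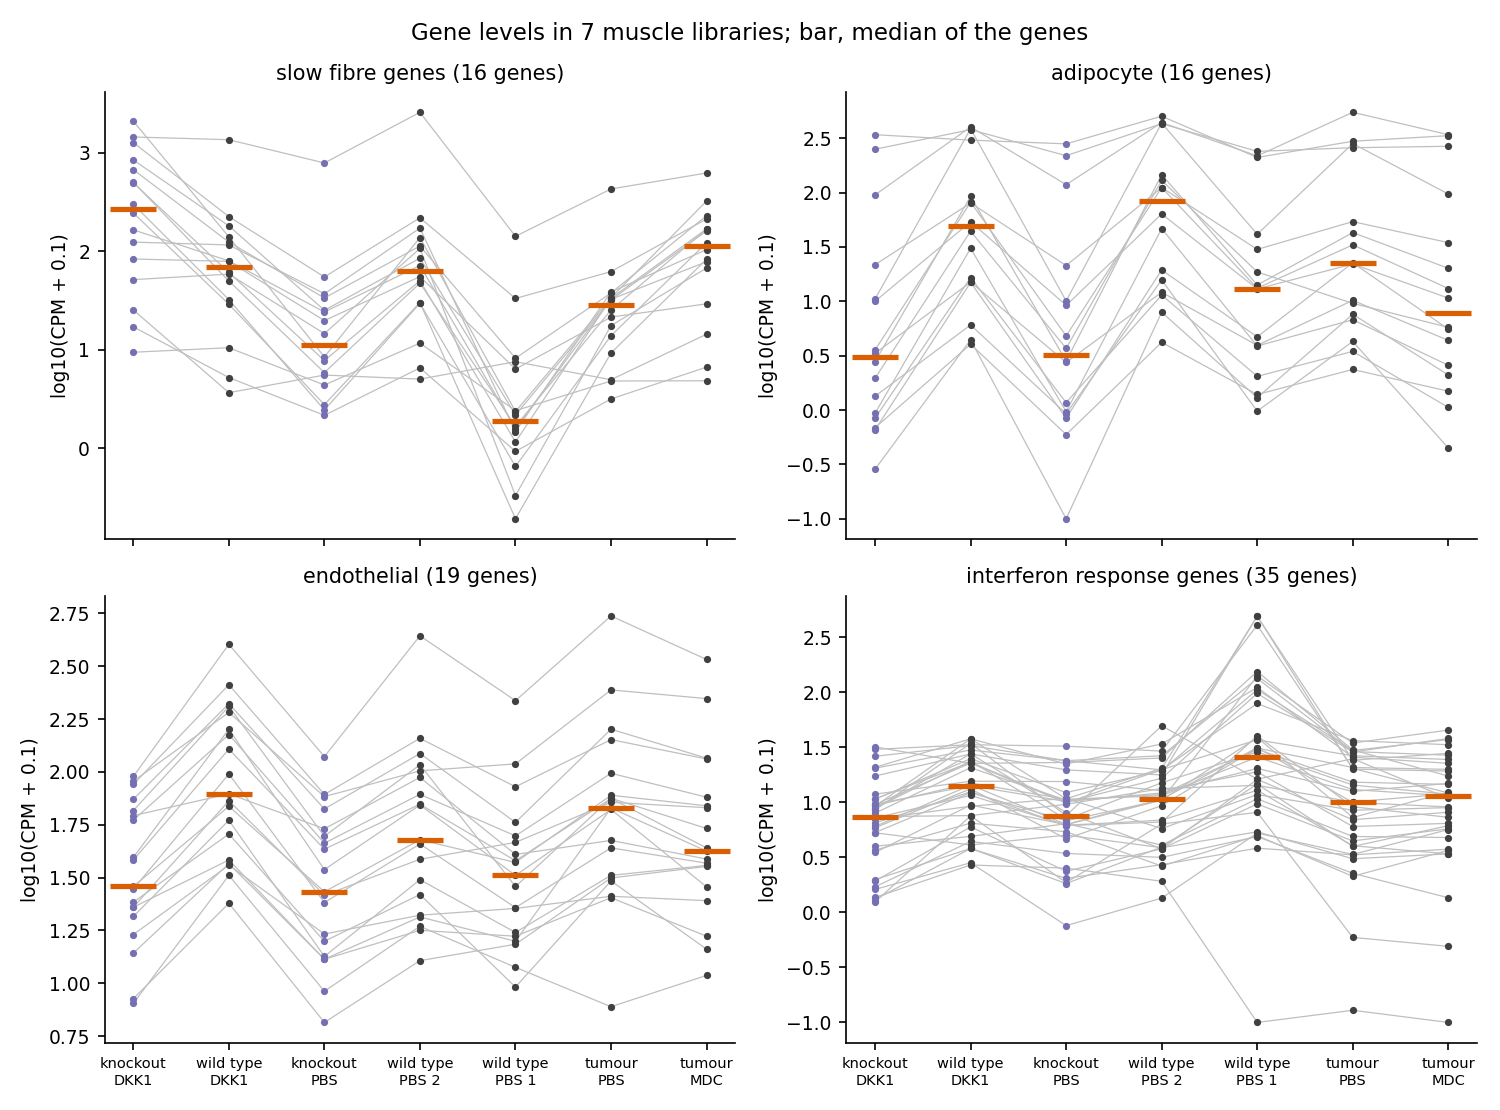
Expression of the measured genes of 4 lists in each of 7 muscle libraries, as log10 of CPM plus 0.1; each grey line is 1 gene, points of knockout-labelled libraries are violet, and orange bars are medians over genes. By median, slow fibre genes are highest in knockout-labelled DKK1 and lowest in wild type PBS 1, while adipocyte genes are lowest in both knockout-labelled libraries.

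Fast fibre genes were higher for 4 of 18 members and lower for 1. Myh4, the myosin of the fastest fibres, was at 42200 against 12900 CPM with DKK1 and at 54200 against 28000 CPM in the PBS libraries of set C. Actn3, the alpha-actinin of fast fibres, was at 7020 against 2550 CPM, and Mybpc2, fast myosin-binding protein C, at 4730 against 1600 CPM. Myh1 went the other way, at 4330 against 8670 CPM. Scaled by gene length as RPKM, Myh4 made up 81.5% of the 4 adult limb myosins in knockout-labelled DKK1 and 53.2% in wild type DKK1, Myh1 8.4% and 35.9%, Myh2 6.1% and 10.3%, and Myh7 4.04% and 0.577%. The PBS libraries of set C differed in the same direction for Myh4, at 88.4% and 68.5%, but Myh7 was at 0.0136% and 0.336%. Wild type PBS 1 was above both knockout-labelled libraries, with a Myh4 share of 96.5% and with 73500 CPM of Myh4, 9780 CPM of Actn3 and 5520 CPM of Mybpc2. Replacing wild type DKK1 by wild type PBS 2 left 0 fast fibre genes higher, and with knockout-labelled PBS in place of knockout-labelled DKK1, 10 were.

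**Figure D2:**
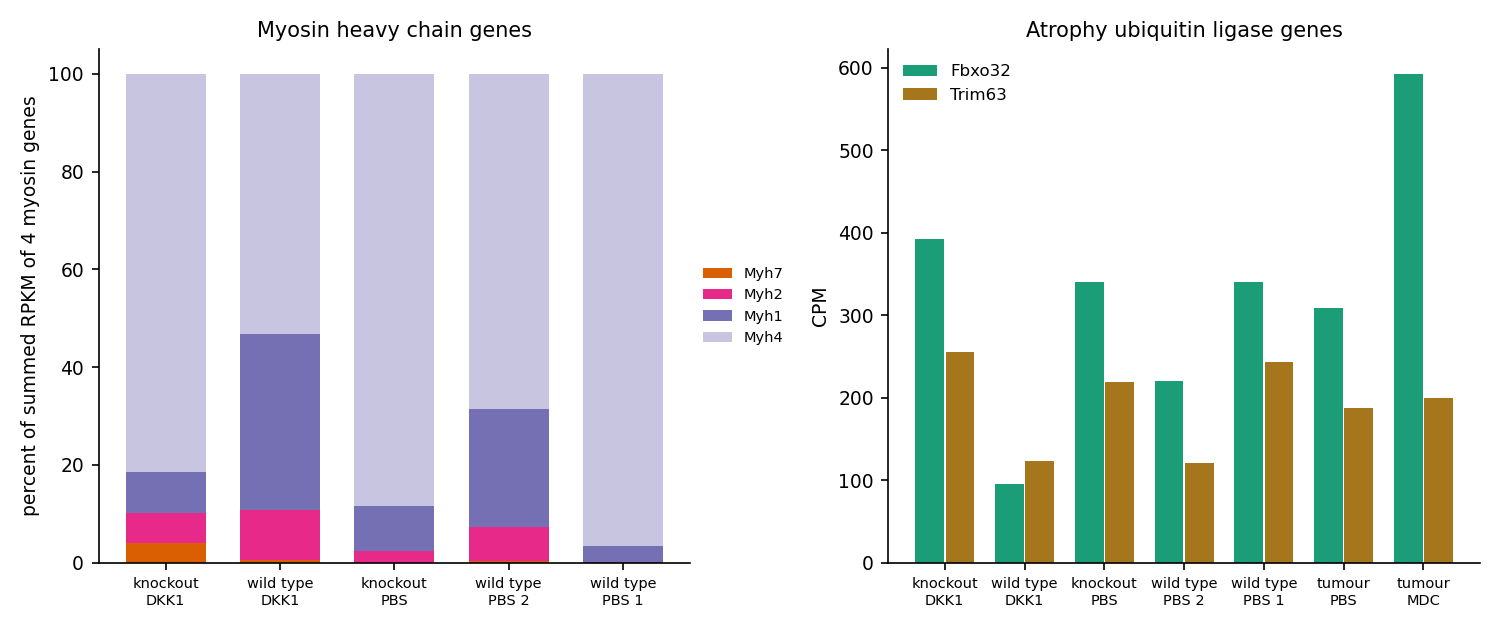
Left, the share of 4 myosin heavy chain genes in their summed RPKM in 5 libraries without a tumour; right, CPM of Fbxo32 and Trim63 in 7 muscle libraries, 1 bar per library. Wild type DKK1 has the largest Myh1 share of the 5, at 35.9%, and the lowest Fbxo32 of the 7, at 95.1 CPM.

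The ubiquitin ligase genes Fbxo32 and Trim63 were higher in the knockout-labelled DKK1 library. Fbxo32 was at 392 CPM there and 95.1 CPM in wild type DKK1, 4.12-fold higher (interval 3.97 to 4.28), and it was at 341, 220 and 340 CPM in knockout-labelled PBS, wild type PBS 2 and wild type PBS 1. Trim63 was at 256 against 123 CPM with DKK1, and at 219, 121 and 243 CPM in those PBS libraries. For Fbxo32 the wild type DKK1 library was the lowest of the 7, while for Trim63 both wild type libraries of set C were low. Cebpd, a transcription factor induced by glucocorticoids and cytokines, was at 64.6 against 24.2 CPM. These were 3 of 19 measured members, 0 were lower, and Foxo1 and Foxo3, the factors that drive the ligase genes, had log2 ratios of -0.17 and 0.44. The count was 1 with wild type PBS 2 in place of wild type DKK1. Scaled by total counts it was 2, since Trim63 fell to a log2 ratio of 0.782, under 2-fold.

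Lists of muscle structure and development are read against the 12.6% of all genes called in either direction. Of 22 sarcomere genes 3 were higher and 0 lower, among them Ttn, which encodes the giant protein titin, at 7170 against 2370 CPM, and Lmod2, an actin filament nucleator, at 440 against 214 CPM. The sarcomere count was 1 when libraries were scaled by total counts and 0 with wild type PBS 2 as the reference. Among 17 myogenic genes Myh8, Mef2c and Peg3 were higher and Igf1 and Igf2 lower, and scaling by total counts left 1 higher. Myh8, a myosin of newborn and regenerating fibres, was at 51.8 against 16.7 CPM. Of 21 denervation genes Sln, Myh8 and Hdac9 were higher, and with knockout-labelled PBS in place of knockout-labelled DKK1 the count was 1. Of 15 skeletal muscle markers Myh4, Ttn and Ryr1 were higher and Ckmt2 and Myh1 lower, and with wild type PBS 2 as the reference 0 were higher.

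Adipocyte genes were lower in the knockout-labelled DKK1 library for 14 of 16 measured members, with a median log2 ratio of -3.35, and none was higher. Cfd, which encodes the fat cell protease adipsin, was at 10.4 CPM in knockout-labelled DKK1 and 386 CPM in wild type DKK1, and at 9.97, 435 and 41.2 CPM in knockout-labelled PBS, wild type PBS 2 and wild type PBS 1. Both knockout-labelled libraries were thus below all 3 wild type libraries and below the tumour libraries, at 282 and 96.7 CPM, and Cfd was 37.2-fold higher in wild type DKK1 (interval 33.4 to 41.5). Plin1 was at 0.836 against 30.6 CPM. Adipoq, the hormone adiponectin, was at 3.47 against 81.3 CPM, and Lep, the hormone leptin, at 0.743 against 16.4 CPM. The fat droplet protein Cidec and the hormone Retn were 34.1-fold and 26.6-fold higher in wild type DKK1. Pparg and Cebpa, transcription factors of fat cell formation, had log2 ratios of -2.19 and -2.43. Plin4 and Pnpla2, which muscle fibres also express, were the 2 members within 2-fold.

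The adipocyte difference was present in the PBS contrast, where 13 of 15 members were lower with a median of -4.13, and 13 were lower with wild type PBS 2 in place of wild type DKK1. The summed CPM of the list was 742 in knockout-labelled DKK1, 674 in knockout-labelled PBS, 1910 in wild type DKK1, 2490 in wild type PBS 2 and 813 in wild type PBS 1. Wild type PBS 1, from set B, therefore lay near the knockout-labelled libraries in this sum, which Plin4 and Pnpla2 enter. Ucp1 was at 0 counts in the knockout-labelled DKK1 library and did not reach 100 counts in wild type DKK1. Wild type PBS 2 also stood above wild type PBS 1, by a median of 2.5 on the log2 scale, and the part of fat attached to each piece of muscle was not tested.

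Genes of lipid and sterol synthesis were lower for 10 of 25 members and higher for 1. Scd1, the main fatty acid desaturase of fat and liver, was at 80.7 against 1020 CPM, and in the PBS libraries of set C at 53.2 against 796 CPM. Fasn, fatty acid synthase, was at 23.7 against 275 CPM. Elovl6 and Agpat2, which lengthen fatty acids and build phosphatidic acid, had log2 ratios of -2.97 and -2.48. Me1, malic enzyme, was the member higher, at 369 against 144 CPM, and at 440 against 176 CPM with PBS. All 11 of these had the same sign in the PBS contrast, whose reference is wild type PBS 2, and the adipocyte genes moved with them. The set B library wild type PBS 1 lay near the knockout-labelled libraries instead. Scd1 stood at 61.3 CPM there, Fasn at 21.5 CPM and Elovl6 at 0.646 CPM, each below knockout-labelled DKK1. Agpat2, at 7.8 CPM, and Me1, at 469 CPM, were above it. The list summed to 1120 CPM there, against 1450 for knockout-labelled DKK1 and 2730 for wild type DKK1.

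Other genes of fat and liver were also among the 15 lowest. Cyp2e1, a cytochrome P450 of liver and fat, was at 4.86 against 201 CPM, and Hp, the haemoglobin-binding plasma protein haptoglobin, at 2.69 against 72.6 CPM. Gdpd3, a lysophospholipase D, had the lowest log2 ratio of the 15, at -6.16, with 14 counts against 1387 and 2 against 568 in the PBS libraries of set C. It was 83.3-fold higher in wild type DKK1 (interval 49.5 to 153), but held 0.646 CPM in wild type PBS 1 and 0.521 and 0.697 CPM in the tumour libraries, so only wild type libraries of set C were high. H2-Q10, a secreted class I histocompatibility gene, also stood at 12.6 and 4.67 CPM in those 2 libraries and under 1 CPM in the other 5. Arxes1 and Arxes2 are near-identical copies, whose reads may be split between them, and Pck1, Pmp2, with 1 count against 143, Nnat and Acvr1c complete the 15.

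**Figure D3:**
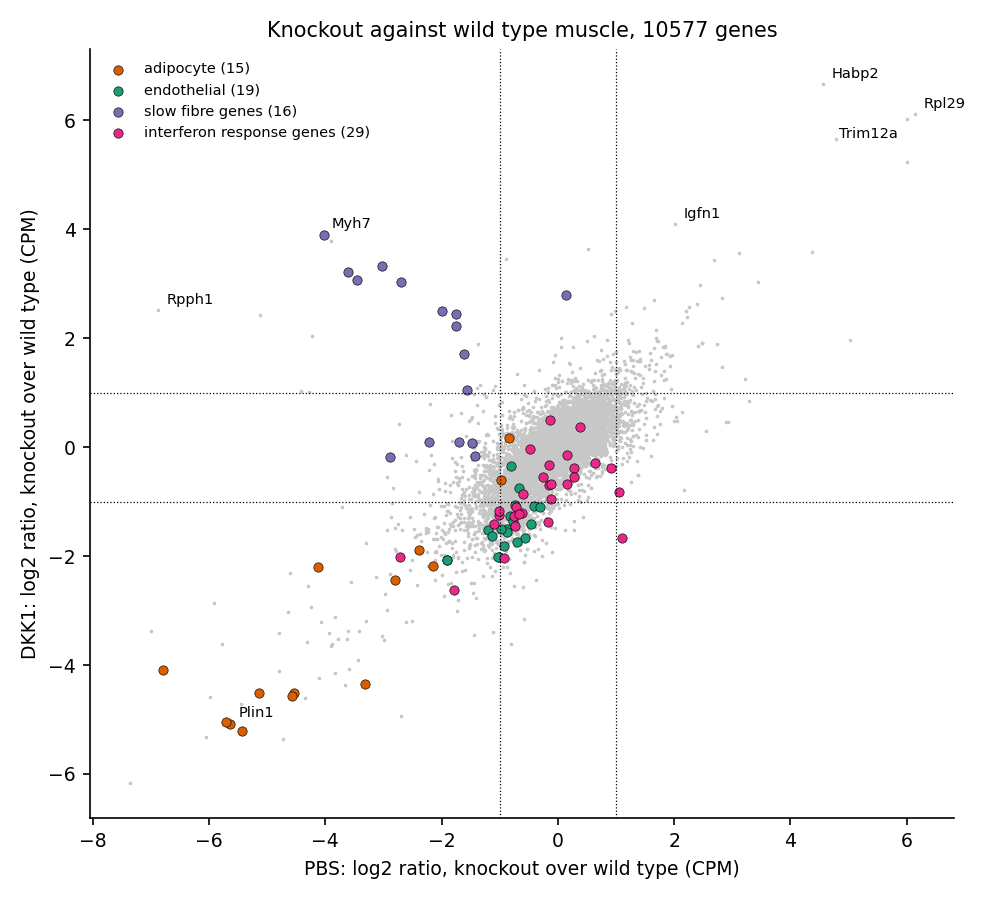
Log2 ratio of CPM, knockout-labelled over wild type, with DKK1 (vertical) against PBS (horizontal) for 10577 genes with 100 or more counts in both contrasts; dotted lines mark 2-fold and colours mark 4 lists. Adipocyte genes lie at the lower left, 11 slow fibre genes above the upper dotted line, and Rpl29, Habp2 and Trim12a at the upper right.

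Matrix, vessel and nerve genes were lower together. Collagen and matrix genes were lower for 25 of 35 members with a median log2 ratio of -1.4, endothelial markers for 17 of 19 with -1.5, pericyte and smooth muscle markers for 11 of 14 with -1.16, and Schwann cell markers for 10 of 12 with -1.68. None of these 4 lists had a member higher, against 2.71% of all genes tested. The summed CPM in knockout-labelled DKK1 and wild type DKK1 was 1580 and 4080 for matrix, 804 and 2300 for endothelium, 699 and 1200 for pericytes, and 139 and 563 for Schwann cells. In wild type PBS 1 the sums were 1100, 872, 524 and 52.7 CPM in that order. They were thus below knockout-labelled DKK1 for matrix, pericytes and Schwann cells, and near it for endothelium. Between the wild type PBS libraries, 27 of 35 matrix genes were higher in wild type PBS 2, with a median of 1.57. In the PBS contrast 27 of 35 matrix genes, 5 of 19 endothelial, 6 of 13 pericyte and 4 of 5 Schwann cell genes were lower, and 0 higher.

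Col3a1, the fibrillar collagen of soft connective tissue, was at 176 against 639 CPM with DKK1 and at 155 against 446 CPM in the PBS libraries of set C. Col4a1, a collagen of basement membranes, was at 77.9 against 314 CPM. Postn and Tnc, matrix proteins of growing and injured tissue, had log2 ratios of -2.26 and -2.11. Among endothelial genes Kdr, the main receptor for the vessel growth factor VEGF-A, was at 39.3 against 159 CPM with DKK1 and 34.4 against 69.6 CPM with PBS. Tie1, an endothelial receptor kinase, was at 27.8 against 97.6 CPM. Acta2, smooth muscle actin, was at 46.9 against 147 CPM, and Mbp, a protein of myelin, at 18.2 against 75.1 CPM. For Kdr and Mbp wild type DKK1 was the highest of the 7 libraries.

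These counts leaned on the wild type DKK1 library. Against wild type PBS 2 in its place, 15 matrix, 2 endothelial, 2 pericyte and 1 Schwann cell gene were lower in knockout-labelled DKK1. With knockout-labelled PBS in place of knockout-labelled DKK1 the counts were 34, 18, 11 and 10. Fibroblast markers gave 3 lower of 15, namely Col3a1, Col1a1 and Htra3, but 6 under scaling by total counts and 15 with knockout-labelled PBS. Satellite cell markers gave 3 lower of 10, Notch3, Heyl and Vcam1, which vessel cells also express, and 0 with wild type PBS 2 as the reference. Of 7 tendon and cartilage genes Kera, Tnmd, Cilp and Thbs4 were lower and Comp and Scx higher, and with wild type PBS 2 as the reference 0 were lower.

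**Figure D4:**
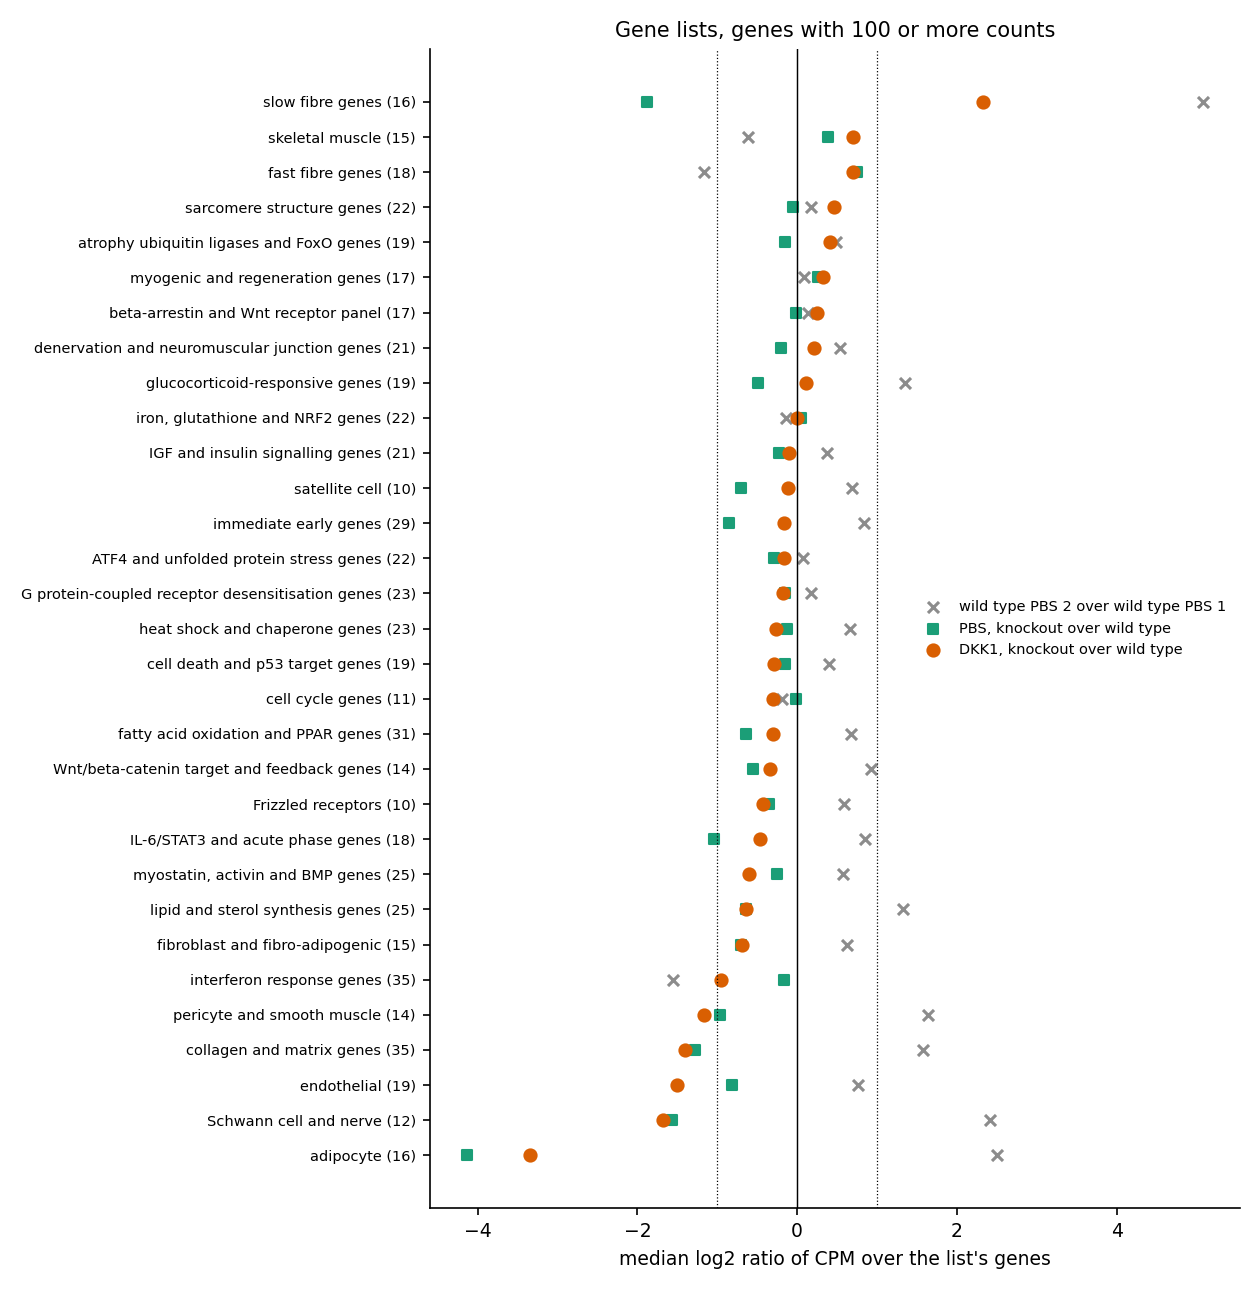
Median log2 ratio of CPM over the measured genes of each list in 3 comparisons; the number of genes with 100 or more counts in the DKK1 contrast follows each name, and dotted lines mark 2-fold. The adipocyte median is -3.35 with DKK1 and -4.13 with PBS, while the slow fibre median is 2.33 and -1.88.

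Of 35 interferon response genes 16 were lower, with a median of -0.953, and none was higher. Iigp1, an interferon-induced GTPase, was at 9.14 against 37.8 CPM with DKK1, at 10.7 and 20.3 CPM in the PBS libraries of set C, and at 492 CPM in wild type PBS 1. Cxcl9, a chemokine induced by interferon gamma, was at 1.15 against 7.45 CPM. The immunoproteasome genes Psmb9 and Psmb8 and the peptide transporter Tap1 had log2 ratios of -1.65, -1.17 and -1.44. The summed CPM was 323 in knockout-labelled DKK1, 579 in wild type DKK1, 344 in knockout-labelled PBS, 451 in wild type PBS 2 and 2660 in wild type PBS 1. In the PBS contrast 5 of 29 members were lower and 2 higher, and with wild type PBS 2 in place of wild type DKK1 5 were lower. Xaf1, a partner of apoptosis inhibitors, was the gene lower with DKK1, at 8.64 against 27.6 CPM, and higher with PBS, at 8 against 3.69 CPM. Wild type PBS 1 held 9.6 CPM of Xaf1, above knockout-labelled PBS.

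Heat shock genes were lower for 6 of 23 members, against 9.9% of all genes. Hspa1a and Hspa1b, inducible HSP70 genes that are near-identical copies, were at 44.4 against 355 CPM and 33.6 against 371 CPM. In the PBS libraries of set C they were at 25.2 against 193 CPM and 21.9 against 179 CPM, and both genes were lowest in wild type PBS 1, at 4.52 and 3.51 CPM. Dnajb1 and Hsp90aa1 had log2 ratios of -1.81 and -1.48, and with wild type PBS 2 as the reference 3 heat shock genes were lower. Immediate early genes were mixed, with 6 of 29 lower and 2 higher, against 9.9% and 2.71% of all genes. Fos was at 79.3 against 21.2 CPM and Fosb at 12.2 against 4.11 CPM, while Nr4a3 was at 2.63 against 13.2 CPM and Arc at 2.66 against 9.58 CPM. The number lower was 10 under scaling by total counts, 2 with wild type PBS 2 as the reference and 14 with knockout-labelled PBS in place of knockout-labelled DKK1.

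Among receptors for DKK1, Lrp6, Lrp5 and Kremen1 were within 2-fold and Ckap4 was lower. Lrp6 was at 56.5 CPM in knockout-labelled DKK1 and 62.3 CPM in wild type DKK1, and at 59.6 and 60.6 CPM in the PBS libraries of set C. Lrp5 was at 21.8 against 42.1 CPM, a log2 ratio of -0.95 that fell short of 2-fold, and at 12.7 against 32.6 CPM with PBS. Kremen1 was at 110 against 92.4 CPM, and Ckap4 at 8.98 against 24.7 CPM. With PBS Ckap4 was at 11.1 against 22.2 CPM, a log2 ratio of -0.99, and wild type PBS 1 held 8.81 CPM, near knockout-labelled DKK1. Dkk1 itself had 0 counts in all 4 libraries of set C, where up to 3 counts are allowed. Dkk2 and Dkk3, relatives of DKK1, were higher, at 8.14 against 3.83 CPM and 67.2 against 31.5 CPM, but under total counts their log2 ratios were 0.804 and 0.816. With PBS Dkk2 was at 1.28 against 2.94 CPM and Dkk3 at 75.3 against 84.7 CPM. Ckap4, Dkk2 and Dkk3 were the only calls among 17 genes of the receptor and arrestin panel, and Ctnnb1, which encodes beta-catenin, was at 255 against 307 CPM.

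Target and feedback genes of Wnt signalling were lower for 5 of 14 measured members and higher for 1. Over all genes 9.9% were lower and 2.71% higher. Axin2, the most used readout of the pathway, was within 2-fold at 8.55 against 10.2 CPM. Id2 was at 3.81 against 14.5 CPM, and the feedback inhibitor Nkd1 at 2.32 against 6.41 CPM. Of the secreted Wnt binders Sfrp2 and Sfrp5 were lower and Sfrp4 was higher, with log2 ratios of -1.77, -1.48 and 1.04. Only 1 member was lower with wild type PBS 2 in place of wild type DKK1. Of 10 Frizzled receptors Fzd3 and Fzd2 were lower, at 0.805 against 3.44 CPM and 3.44 against 8.54 CPM.

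Genes of receptor desensitisation, in which beta-arrestins act, were lower for 5 of 23 members and higher for 2. The shares over all genes were 9.9% and 2.71%. Arrdc2 and Arrdc3, arrestin-domain proteins, were higher, with Arrdc2 at 118 against 29.4 CPM and Arrdc3 at 139 against 58.7 CPM. Arrdc2 was at 95.6 and 92.5 CPM in the PBS libraries of set C, so wild type DKK1 was low. Adrb3, the beta-adrenergic receptor of fat cells, was at 0.186 against 4.32 CPM, and the pericyte gene Rgs5 at 51.7 against 170 CPM. Rgs4, Grk5 and Agtr1a had log2 ratios between -1.26 and -1.07. Against wild type PBS 2 as the reference 2 members were lower.

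Of 25 genes of myostatin, activin and BMP signalling 7 were lower and 2 higher, against 9.9% and 2.71% of all genes. Id1 and Id3, direct BMP targets, had log2 ratios of -1.82 and -1.4. Id1 was at 32.1 against 114 CPM, and at 23.6 CPM in wild type PBS 1. Acvr1c, an activin receptor of fat, had 2 counts against 113, a ratio of 47.5 in favour of wild type DKK1 (interval 12.9 to 397). It had 87 counts in wild type PBS 2 but 4 in wild type PBS 1. Gdf11, a relative of myostatin, was higher at 6.44 against 2.42 CPM, and Acvr1b, an activin receptor, at 115 against 55.3 CPM, while Mstn, myostatin itself, was at 110 against 67.7 CPM. With wild type PBS 2 as the reference 0 were lower, and with knockout-labelled PBS in place of knockout-labelled DKK1 13 were. Of 21 genes of insulin-like growth factor signalling 4 were lower, and 0 with wild type PBS 2 as the reference. Igf1, a growth factor for muscle, was at 21 against 51.5 CPM with DKK1 and at 34.6 against 25.6 CPM with PBS, and Igfbp7 at 49.7 against 171 CPM.

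Of 31 genes of fatty acid oxidation 4 were lower, against 9.9% of all genes, and 1 higher, and scaling by total counts or using knockout-labelled PBS gave 7 lower. In the PBS contrast 10 of 31 were lower and 0 higher. Angptl4, an inhibitor of lipoprotein lipase, was at 1.21 against 11.6 CPM, and Pdk4, the kinase that spares glucose, at 576 against 244 CPM, though its log2 ratio was 0.964 under total counts, short of 2-fold. Of 18 acute phase and STAT3 genes 5 were lower and 1 higher, or 8 lower under total counts and with knockout-labelled PBS, and with PBS 11 of 20 were lower and 2 higher. The 5 were led by Hp, Orm1 and Serpina3n, which liver and fat express, with log2 ratios of -4.72, -3.38 and -3.21. Chac1, which breaks down glutathione, was higher with DKK1, at 99.2 against 26.5 CPM, and with PBS, at 120 against 17.9 CPM. It was the member higher among 22 ATF4 genes, of which Phgdh, Asns and Psat1 were lower, and total counts gave 6 lower. The 1 higher and 3 lower were near the 2.71% and 9.9% of all genes. Tfrc, the transferrin receptor, was at 250 against 116 CPM, and with Chac1 made 2 higher of 22 iron and glutathione genes, where Steap4 was lower.

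Of 19 glucocorticoid-responsive genes Pdk4 was higher and Angptl4 and Hsd11b1 lower, a share near the 9.9% of all genes, and with PBS 5 of 19 were lower and 0 higher. Of 19 genes of cell death Ccng1, a p53 target, was higher, at 1290 against 621 CPM with DKK1 and 1650 against 746 CPM with PBS. Wild type PBS 1 held 1320 CPM of Ccng1, near knockout-labelled DKK1. Tnfrsf10b and Casp8 were lower, also near the 9.9% of all genes. Of 11 cell cycle genes Aurka and Tpx2 were higher and Rrm2, Mcm5 and Mki67 lower, all under 10 CPM in both DKK1 libraries, and 1 was lower with wild type PBS 2 as the reference. None of 46 respiratory chain subunits, 31 proteasome subunits, 20 autophagy and lysosome genes or 18 circadian clock genes differed by 2-fold. Of 53 ribosomal protein genes, a list without Rpl29, Rps20 was the call, higher with a log2 ratio of 1.04. Among macrophage markers Fcer1g was the call, lower, of 19. Of 6 cardiac markers Myh6 was higher and Gja5 lower, and of 4 liver markers Cyp2e1, Serpina1b and Trf were lower.

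Genes past the rule in both contrasts were compared next, since the DKK1 and the PBS pair share no library. Of 10577 genes with 100 or more counts in both, 115 were higher in both (1.09%) and 405 lower in both (3.83%), while 22 were called in opposite directions (0.208%). The 115 made up 36.6% of the DKK1 list and 36.4% of the PBS list of higher genes, and the 405 made up 35.3% and 53% of the lower genes. These shares are over whole lists. In the PBS contrast 268 of the 314 higher and 831 of the 1148 lower DKK1 genes had 100 or more counts, and the rest could not be called there. With 1 library for each label and treatment, differences between samples and between genotypes cannot be told apart.

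Rpl29, which encodes a protein of the large ribosomal subunit, was at 274 and 235 CPM in the knockout-labelled DKK1 and PBS libraries, at 3.88 and 3.25 CPM in wild type DKK1 and wild type PBS 2, and at 12.2, 13.1 and 13.2 CPM in wild type PBS 1, tumour PBS and tumour MDC. Both knockout-labelled libraries stood apart from all others, by 70.5-fold (interval 60.0 to 83.5) with DKK1. Rpl29 has processed copies in the mouse genome, and how the authors counted reads with several positions is not given in the sources used here. Trim12a, a gene of a tripartite motif family of antiviral proteins, had 147 and 109 counts in the knockout-labelled libraries, 0 in the 3 wild type libraries, and 7 and 8 in the tumour libraries. Against the 3 counts that a count of 0 allows, it was 58.3-fold higher with DKK1, and the interval from the counts reached down to 46.8.

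The near-identical neighbour Trim12c had 227 and 234 counts in the knockout-labelled libraries against 538 and 253 in wild type DKK1 and wild type PBS 2, within 2-fold in both contrasts, with log2 ratios of -0.99 and -0.22. The sum of Trim12a and Trim12c was 374 against 538 counts with DKK1 and 343 against 253 with PBS, so the level of each copy is uncertain. Trim30d of the same cluster was higher with DKK1, with 109 against 15 counts, and had 92 against 8 counts with PBS, under the 100 counts that a call needs. Trim12a starts 4.76 Mb from Arrb1 on chromosome 7. Within 10 Mb of Arrb1, 2 of 102 genes were higher in both contrasts and 3 lower, or 1.96% and 2.94%, near the shares over all genes, and within 10 Mb of Arrb2 they were 1 and 8 of 225.

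Habp2, a serine protease that binds hyaluronan, and Plet1os, an antisense RNA of Plet1, were higher in both contrasts but not in all comparisons. Habp2 had 231 counts against 0 with DKK1, at least 91.6-fold higher, and 167 against 5 with PBS, but was at 26.3 CPM in wild type PBS 1 and at 17 and 42.7 CPM in the tumour libraries, above the 7.15 CPM of knockout-labelled DKK1. Plet1os had 282 counts against 4 and 194 against 5, and was at 30.8 CPM in wild type PBS 1. For these 2 genes the wild type libraries of set C were the low ones, and the libraries of set B the high ones. Both overlap a gene on the opposite strand, Nrap and Plet1.

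Unc5a, a netrin receptor, was at 22.6 and 21.8 CPM in the knockout-labelled libraries against 1.82 and 0.979 CPM in the wild type libraries of set C and 8.17 CPM in wild type PBS 1, and it overlaps Hk3. Snhg6, a small nucleolar RNA host gene, was at 11.3 and 11.4 CPM against 0.885 and 1.25 CPM. Tmem132b, which encodes a membrane protein, was at 13.8 and 13.8 CPM against 1.69 and 2.49 CPM. For these 3 genes the knockout-labelled libraries were close to each other and above every other muscle library. Nxpe4 and Tmc7 also exceeded every other muscle library, with log2 ratios of 3.44 and 3.04 with DKK1. Tagap1 was at 37.2 and 45.1 CPM, close to the 36.4 CPM of wild type PBS 1. Igfn1, a Z-disc protein of muscle, was at 61.6 against 3.54 CPM with DKK1 and 31.7 against 7.74 CPM with PBS, while tumour MDC was at 31.9 CPM. Slc15a2, a peptide transporter, was among the 15 highest with DKK1, at 4.4 against 0.286 CPM, and was within 2-fold with PBS, at 6.43 against 4.45 CPM.

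**Figure D5:**
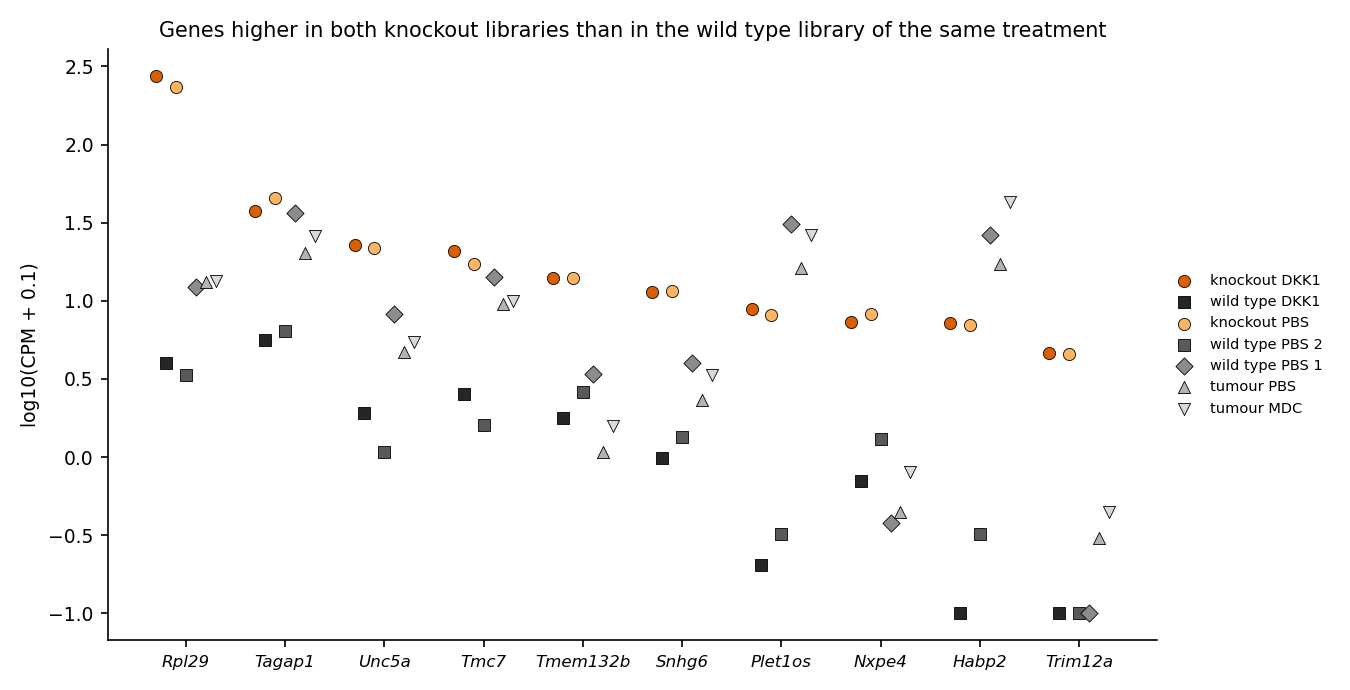
Levels of the 10 named genes higher in both contrasts, as log10 of CPM plus 0.1, with 1 point per muscle library; circles are knockout-labelled libraries and squares the wild type libraries of set C. Rpl29 is at 274 and 235 CPM in the circles and at most 13.2 CPM elsewhere, while Habp2 and Plet1os are higher in the set B libraries than in the circles.

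The 22 genes in opposite directions were 21 higher with DKK1 and lower with PBS, and Xaf1, which went the reverse way. The slow fibre genes Myh7, Tnnc1, Tnni1 and Tnnt1, with Mhrt, had the highest log2 ratios of the 21 with DKK1. RNA components of RNA-processing enzymes were also among them, and Rn45s moved with them. Rpph1, the RNA of ribonuclease P, was at 6.88 against 1.15 CPM with DKK1, and had 0 counts against 186 in the PBS libraries of set C. Rmrp, the RNA of ribonuclease MRP, was at 6.75 against 1.2 CPM with DKK1 and 0.495 against 19.7 CPM with PBS. Rn45s was at 10100 against 4930 CPM and 3690 against 78800 CPM, and Lars2, the mitochondrial leucine tRNA synthetase, at 260 against 128 CPM and 104 against 2020 CPM. These 4 are the measured genes of a list of 8, drawn up as RNA outliers with earlier results of these data known. That all 4 were higher with DKK1 is therefore no support for a shared change. The count was 2 under total counts and 0 when either library of the pair was replaced by its PBS counterpart.

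The difference between the genotype contrasts with DKK1 and with PBS was tested as an interaction in the fit over 7 libraries. In that fit the wild type PBS group held both wild type PBS libraries. The PBS log2 ratios above use wild type PBS 2 alone, so the test is not of the same difference. edgeR's quasi-likelihood test called 0 genes at an adjusted p under 0.05, with 44 at an unadjusted p under 0.05 and a smallest adjusted p of 0.826. DESeq2 called 3 (0.0194%), which were Lars2 (adjusted p = 0.028), Rmrp (0.00828) and Rpph1 (0.00836), and limma-voom called 0, with 13 at an unadjusted p under 0.05.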

How the data were processed

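RNA from 7 mouse muscle libraries was analysed from 1 deposited table per library, each with 24421 gene symbols. Per the submitters' processing notes reads were aligned with HISAT2 2.1.0 to mm10 (counting program, annotation and strand setting: not given in the sources used here). The deposited tables hold unnormalised read counts and, in another column, RPKM that the authors derived from them. RPKM recomputed from counts was within 0.000495% of the deposited value.

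Counts were scaled with TMM over the 7 libraries in edgeR 4.0.16 (R 4.3.3), and log2 CPM used a prior count of 2. A call needed 2-fold and 100 counts in the higher library. For edgeR's quasi-likelihood test 15482 genes passed filterByExpr with a minimum count of 10, with Benjamini-Hochberg adjustment; its 1 residual degree of freedom comes from the wild type PBS pair (biological coefficient of variation 0.498), and the spread of that pair is taken to hold for every group. DESeq2 1.42.0 and limma-voom (limma 3.58.1) were alternatives. The methods were tested on simulated data. The wild type PBS pair spans sets B and C, while the DKK1 contrast lies within set C. P-values measure the spread of that pair, which includes any difference between the sets and may be technical.

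Genes were named by rule: the 15 highest and 15 lowest without predicted genes, RIKEN clones, pseudogenes and small RNAs; 10 in each direction in both contrasts and 5 in each opposite direction; up to 4 members in each direction from each described list; and a panel of 19 genes. Some genes that met the rule are not reported here. Genes named beside these were picked with their values in view. The comparison and the 53 lists of 1035 genes were chosen with earlier results of these data known. Comparing with a PBS library in place of a DKK1 library was added after seeing the data. Positions are from the GRCm38 annotation.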

Additional observations from a re-analysis of the deposited data

Results flagged for a closer look

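For 13 named genes the knockout-labelled library was past the 2-fold rule in opposite directions with DKK1 and, against wild type PBS 2, with PBS. The value given for each is the log2 ratio with DKK1 minus that with PBS. Among genes of slow and cardiac muscle it was 7.93 for Myh7, 7.69 for Mhrt, 6.83 for Tnnc1, 6.53 for Tnni1, 6.36 for Tnnt1 and 6.27 for Myh6, and for the sarcomere gene Lmod2 it was 2.15. Among structural and processing RNAs and their companion Lars2 it was 9.39 for Rpph1, 7.55 for Rmrp, 5.45 for Rn45s and 5.29 for Lars2. The immediate early gene Fos had 3.28, and Xaf1 had -2.77. For some genes the sign with PBS depended on the reference library. Knockout-labelled PBS was above wild type PBS 1 for Myh7 (8.37 against 2.26 CPM), Mhrt, Tnnc1, Tnni1, Tnnt1, Myh6 and Lmod2 (142 against 6.14 CPM). It was below both wild type PBS libraries for Rpph1, Rmrp, Rn45s, Lars2 and Fos. For Xaf1 the sign also depended on the reference, since knockout-labelled PBS, at 8 CPM, was above wild type PBS 2 but below the 9.6 CPM of wild type PBS 1. Each ratio rests on 1 library per side. The interaction test took both wild type PBS libraries as its PBS reference, so it is not a test of the differences listed here. In edgeR's quasi-likelihood test of the interaction the adjusted p was 0.826 for Rpph1 and 1.0 for the other 12 genes, and DESeq2 called Lars2, Rmrp and Rpph1.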

How the results depend on the processing

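No named gene past the size rule changed sign with DESeq2 size factors, total counts or a prior count of 0.5, and Kremen1, within 2-fold, moved from 0.251 to -0.0247 on the log2 scale under total counts. Of 56 genes that the naming rule took and that were called higher, 21 fell under 2-fold with total counts, among them Trim63, Pdk4, Dkk2, Dkk3, Sfrp4, Arrdc3, Acvr1b, Tfrc, Ccng1, Lmod2, Mef2c and Ryr1. Of 95 so taken and called lower, Htra3, Igfbp4 and Myh1 did so with DESeq2 size factors. The counts of genes called with DKK1 stayed within 1.5 times of 314 higher and 1148 lower with DESeq2 size factors, TMM over set C alone, TMM without Rn45s, a minimum of 50 counts and a prior count of 0.5, and leaving out either wild type PBS library gave 314 and 1148. Under total counts they were 157 and 1757, with 73 genes higher and 628 lower in both contrasts. A minimum of 500 counts gave 170 and 580 with DKK1, 154 and 276 with PBS, and 65 and 152 in both. No minimum gave 1007 and 2366, 1345 and 2489, and 314 and 1001, with 245 in opposite directions. A fold of 4 gave 52 and 170, 37 and 135, and 17 and 59, with 9 in opposite directions, and a fold of 1.5 gave 1157 and 2111, 1203 and 1809, and 529 and 1162, with 50. With wild type PBS 1 as the PBS reference 851 genes were higher with PBS, 75 higher and 97 lower in both, and 95 in opposite directions, and calls required against each wild type PBS library were 81 and 68. The number of genes lower with DKK1 was 458 with wild type PBS 2 in place of wild type DKK1 and 1766 with knockout-labelled PBS in place of knockout-labelled DKK1. DESeq2 called 14 genes with DKK1 and 3 for the difference between the contrasts, where edgeR called 0.

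Of 29 list counts, 29 stayed within 1.5 times under DESeq2 size factors, 29 with a prior count of 0.5, 21 under total counts, 9 with wild type PBS 2 in place of wild type DKK1 and 18 with knockout-labelled PBS in place of knockout-labelled DKK1. Under total counts 1 myogenic, 1 sarcomere and 2 structural RNA genes were higher, and 7 fatty acid oxidation, 8 acute phase, 10 immediate early, 6 ATF4 and 6 fibroblast genes lower. With wild type PBS 2, 1 atrophy, 0 fast fibre, 1 myogenic, 0 sarcomere, 0 structural RNA and 0 skeletal muscle genes were higher. With it 1 Wnt target, 5 interferon, 2 immediate early, 3 heat shock, 1 cell cycle, 15 matrix, 0 myostatin and BMP, 0 IGF, 2 desensitisation, 0 satellite cell, 0 tendon, 2 endothelial, 2 pericyte and 1 Schwann cell genes were lower. With knockout-labelled PBS, 0 slow fibre, 10 fast fibre, 1 denervation, 5 sarcomere, 0 structural RNA and 5 skeletal muscle genes were higher, and 7 fatty acid oxidation, 8 acute phase, 14 immediate early, 13 myostatin and BMP and 15 fibroblast genes lower. Apart from counts that follow from the threshold itself, the cause was not tested.

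No paired analysis was possible because replicate numbers are given for wild type PBS alone and no label ties libraries to a shared animal. Without either wild type PBS library the edgeR test has no residual degree of freedom. A count of 0 allowed up to 0.0929 CPM in the knockout-labelled DKK1 library.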

Other observations

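The major urinary proteins, a family of near-identical liver genes on chromosome 4, were lower in the library labelled knockout DKK1 wherever they reached 100 counts. Their sum was 547 counts in that library and 5231 in wild type DKK1, and 868 and 1901 counts in the knockout-labelled and wild type PBS libraries of set C. Wild type PBS 1 held 5551 counts, and the tumour libraries 17428 (PBS) and 9258 (MDC). The copies share sequence, and single members are not ranked.

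Genes higher in both contrasts made up from 0.198% of the genes tested on chromosome 10 to 2.7% on chromosome 1, among the autosomes and X, against 1.06% of all placed genes. Of 97 genes tested on chromosome 9 from 100000001 to 110000000, 5 were higher in both, namely Rpl29, Parp3, Col7a1, Tma7 and Nme6. On chromosome 19 from 1 to 10000000 the count was 5 of 150, and these were Carns1, Tbc1d10c, Actn3, Malat1 and Neat1. These bins were chosen after their counts were seen.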
